A study of Mus musculus with 11 samples.

Results

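The clade B serpins are the intracellular branch of the serpin family of protease inhibitors. The 28 genes whose symbol starts with Serpinb were taken from the 45777 genes measured by RNA sequencing in the skin and small intestine of mice given imiquimod (IMQ) or vehicle cream. IMQ activates the endosomal receptor TLR7, and its cream is used to model psoriasis in mice. The animals were BALB/c mice of either sex, 8 to 10 weeks old at the start of treatment. Each received 62.5 mg of cream per day. The control groups were given Vaseline and the treated groups Aldara, which contains 5% IMQ. Effects of IMQ and of the rest of the cream therefore cannot be told apart. The sample annotation names the shaved back and the right ear as treated sites and a duration of 5 to 8 days, whereas the methods of the study describe a shorter course on the back, and the length of treatment is not given per animal. Skin was represented by 3 control libraries (replicates 1 to 3) and 3 IMQ libraries (4 to 6), and small intestine by 3 control libraries (7 to 9) and 2 IMQ libraries (10 and 11). The annotation does not state which skin and which intestine came from one mouse, so p-values measure the spread between these samples.

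Serpins act as suicide substrates. A protease cuts the exposed reactive centre loop of the inhibitor and is then trapped and distorted, and the sequence of the loop decides which proteases are caught. Clade B members lack a classical signal peptide and mostly guard the inside of the cell against proteases that leak from granules and lysosomes. They are best known from leukocytes, which need protection from their own elastase, cathepsin G and granzymes, and from stratified epithelia such as the epidermis, where some members serve as markers of squamous differentiation and inflammation.

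All 28 members were matched to RefSeq by their Entrez identifier, and all were protein coding. They lay in 2 clusters of the GRCm38 genome. The cluster on chromosome 1 held 12 members between 106861175 and 107608978 (747.8 kb): *Serpinb5*, *Serpinb12*, *Serpinb13*, *Serpinb3a*, *Serpinb3d*, *Serpinb3b*, *Serpinb3c*, *Serpinb11*, *Serpinb7*, *Serpinb2*, *Serpinb10* and *Serpinb8*. The cluster on chromosome 13 held 16 members between 32842092 and 34002794 (1160.7 kb) and consisted of the copies of *Serpinb1*, *Serpinb6* and *Serpinb9*. Libraries had 44995414 to 58526384 counts. *Serpinb9d*, *Serpinb9f*, *Serpinb9g* and *Serpinb9h* had no count in any of the 11 libraries, which at this depth allows up to 3 counts in each. These 4 and *Serpinb9c* and *Serpinb9e* stayed under 10 counts in every library.

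Coding sequences were 86.3% to 93.1% identical among the 4 *Serpinb3* copies, 86.2% to 89.9% among the 3 *Serpinb1* copies, 67.4% to 86.6% among the *Serpinb6* copies and 74.5% to 98.7% among the *Serpinb9* copies. The sources used here do not say how reads fitting more than one gene were assigned. Of 27 members with a GENCODE coding transcript, 19 shared no exact stretch of 100 bases, the read length, with another gene's transcript. *Serpinb3b* and *Serpinb3c* shared 0.51% of such stretches with each other, and *Serpinb3a* shared 6.57% with the pseudogene *Gm8080*. The shares were larger in *Serpinb9* copies with few or no counts, at 52.34% for *Serpinb9f*, 38.51% for *Serpinb9g*, 16.69% for *Serpinb9c*, 10.14% for *Serpinb9e* and 7.21% for *Serpinb9d*, so their counts of 0 may also depend on how such reads were assigned. The reference is not the BALB/c genome and aligners allow mismatches, so the split of reads between copies remained uncertain.

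The reactive centre loop is shown for the *Serpinb3* copies and for *Serpinb1a* and *Serpinb1c*. Capitals mark the codons of the loop, and 15 bases of flanking coding sequence stand on either side (coding strand, GENCODE transcripts of GRCm38).
Serpinb3a: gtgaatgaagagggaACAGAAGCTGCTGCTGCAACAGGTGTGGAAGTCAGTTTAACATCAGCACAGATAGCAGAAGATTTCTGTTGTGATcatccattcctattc
Serpinb3b: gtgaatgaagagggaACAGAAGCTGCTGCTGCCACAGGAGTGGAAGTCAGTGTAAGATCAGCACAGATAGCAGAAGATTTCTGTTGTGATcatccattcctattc
Serpinb3c: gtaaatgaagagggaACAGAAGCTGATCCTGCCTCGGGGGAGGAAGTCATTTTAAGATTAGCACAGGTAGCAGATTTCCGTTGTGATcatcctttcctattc
Serpinb3d: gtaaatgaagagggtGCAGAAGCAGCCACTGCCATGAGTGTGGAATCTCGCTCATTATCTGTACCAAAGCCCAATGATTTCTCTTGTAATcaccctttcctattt
Serpinb1a: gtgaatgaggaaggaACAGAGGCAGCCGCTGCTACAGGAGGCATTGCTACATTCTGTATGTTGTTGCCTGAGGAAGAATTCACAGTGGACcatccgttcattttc
Serpinb1c: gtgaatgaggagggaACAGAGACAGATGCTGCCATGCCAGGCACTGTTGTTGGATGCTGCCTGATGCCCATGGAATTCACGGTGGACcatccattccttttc
The loops of *Serpinb3a* and *Serpinb3b* were 94.7% identical, close to the 92.6% of the coding sequence before the loop. The loop of *Serpinb3d* was 62.7% identical to that of *Serpinb3a*, against 92.0% before the loop. *Serpinb3c* lay between, at 80.0% and 91.8%. The loops of *Serpinb1a* and *Serpinb1c* were 63.3% identical, against 89.8% before the loop.

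The libraries were checked against markers of their tissue. Summed over 9 suprabasal keratinocyte genes, normalized counts were 482720 to 1440706 in skin and 175 to 232 in small intestine. The sum of 7 enterocyte genes was 1096213 to 2000438 in small intestine, and 3438 to 5525 in 5 of the skin libraries. *Anpep* alone had at least 3429 normalized counts in every skin library and held most of the sum in these 5. Skin control replicate 2 stood apart with 19714. It had 5035 of *Fabp2* and 3779 of *Apoa4*, against at most 148 and 83.3 in IMQ-treated skin. Its 6 Paneth cell genes summed to 11112 against 2015 and 2258 in the other control skins. Calls of members that change without this library are given both ways. The 3 control skins also differed in 9 hair follicle genes, which summed to 77120, 364 and 118855 in replicates 1, 2 and 3 and to 360 to 616 in IMQ-treated skin.

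To see where the members are used without treatment, control skin was compared with control small intestine. The summed level of all members was alike, with 514 ± 157 FPKM in skin and 514 ± 93.2 FPKM in small intestine (SD, n = 3 each), but it was made up of different genes. FPKM is a level per transcript length, so it can be compared between genes. In control skin, *Serpinb5* (maspin, a serpin without known protease inhibition) made up 32.3% ± 0.576 of the sum and *Serpinb6a* (an inhibitor of cathepsin G) 28.7% ± 10.5. They were followed by *Serpinb7* at 7.18%, *Serpinb2* at 6.84% and *Serpinb3b* at 5.85%. In control small intestine, *Serpinb1a* (an inhibitor of neutrophil elastase and cathepsin G) made up 54.8% ± 2.27 and *Serpinb6a* 43.8% ± 2.22, which left little for any other member.

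**Figure D1:**
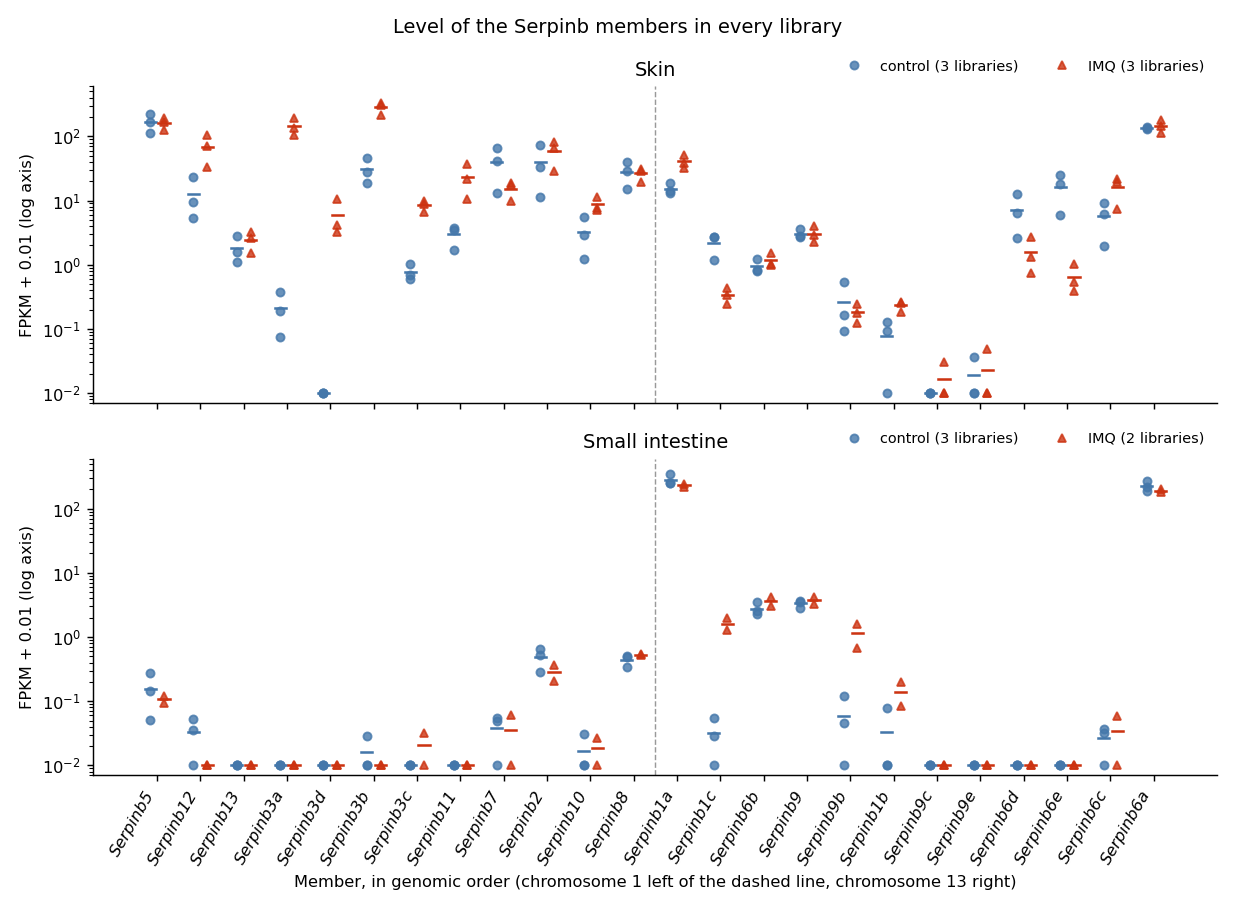
FPKM + 0.01 (log axis) of the 24 members with a count in any library, for each library of skin (upper panel) and small intestine (lower panel). Circles are control libraries, triangles IMQ libraries and lines group means. The chromosome 1 members lie at or below 0.632 FPKM in small intestine, where *Serpinb1a* and *Serpinb6a* lead with at least 179 FPKM.

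Of the 28 members, 19 passed the filter on low counts in this comparison and 18 of them were called at an adjusted p under 0.05 (edgeR quasi-likelihood test), beside 58.1% of all genes. The groups did not overlap for the same 18, beside 67.8% of all genes. Members seen in only one tissue passed the filter through that tissue and had to differ, so the count carries little weight. Normalized counts here were scaled over the 6 control libraries. *Serpinb5* had 20259, 30223 and 13668 normalized counts in control skin and 25.5, 7.08 and 49.0 in control small intestine. Every member of chromosome 1 that was tested, 10 in all, was higher in skin. *Serpinb13*, *Serpinb11*, *Serpinb3c*, *Serpinb6d* and *Serpinb6e* had no count in the 3 control intestines, and their means in control skin were at least 41.5-fold, 70.5-fold, 18.1-fold, 140-fold and 344-fold higher than a floor of 3 counts per library. On chromosome 13 the picture was mixed, with 4 members higher in skin and 4 higher in small intestine. Of all genes, 29.2% were higher in skin and 28.8% in small intestine.

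The members higher in small intestine were *Serpinb1a*, *Serpinb6b*, *Serpinb6a* and *Serpinb9*. *Serpinb1a* had a mean of 1417 ± 400 normalized counts in control skin and 35489 ± 8112 in control small intestine (n = 3 each), a log2 fold change of skin against small intestine of -4.65 ± 0.31 (SE, adjusted p = 5.7e-05). *Serpinb6b* was 3.99-fold lower in skin (adjusted p = 0.00175) and *Serpinb6a* 2.23-fold lower (adjusted p = 0.00226). *Serpinb9*, the inhibitor of granzyme B, differed by -0.60 ± 0.22 (adjusted p = 0.0495) and was not called with TMM normalization (adjusted p = 0.0736) or when any library but skin control replicate 2 was left out. Without that replicate, the differences of *Serpinb1a* and *Serpinb9* were -4.90 and -0.82, and the summed *Serpinb9* copies, not called over all libraries (-0.55, adjusted p = 0.0565), were called (-0.73, adjusted p = 0.0148). TMM and upper-quartile scaling moved the median of all genes by 0.12 and 0.15 on the log2 scale in this comparison, without turning the direction of a called member.

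To assess how the members respond to the IMQ cream at the treated site, the skin of IMQ-treated and control mice was compared. The *Serpinb3* copies, *Serpinb11* and *Serpinb1a* rose, *Serpinb6e* and *Serpinb1c* fell, and the most abundant members of control skin, *Serpinb5* and *Serpinb6a*, did not pass the test. Of 20 members tested, 7 were called (35%), beside 6.74% of 20512 genes tested; 5 were higher, beside 4.05% of all genes, and 2 lower, beside 2.69%. An unadjusted p under 0.05 was reached by 12 of the 20 members and 23.2% of all genes. The groups did not overlap for 9 of the 20 members and for 28.4% of all genes. The median log2 fold change of the 20 members was 0.40, against -0.01 for all genes. On chromosome 1, 4 of 11 tested members rose and none fell. On chromosome 13, 1 of 9 rose and 2 fell. In bulk tissue, fewer cells of a type and less RNA per cell cannot be told apart.

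**Figure D2:**
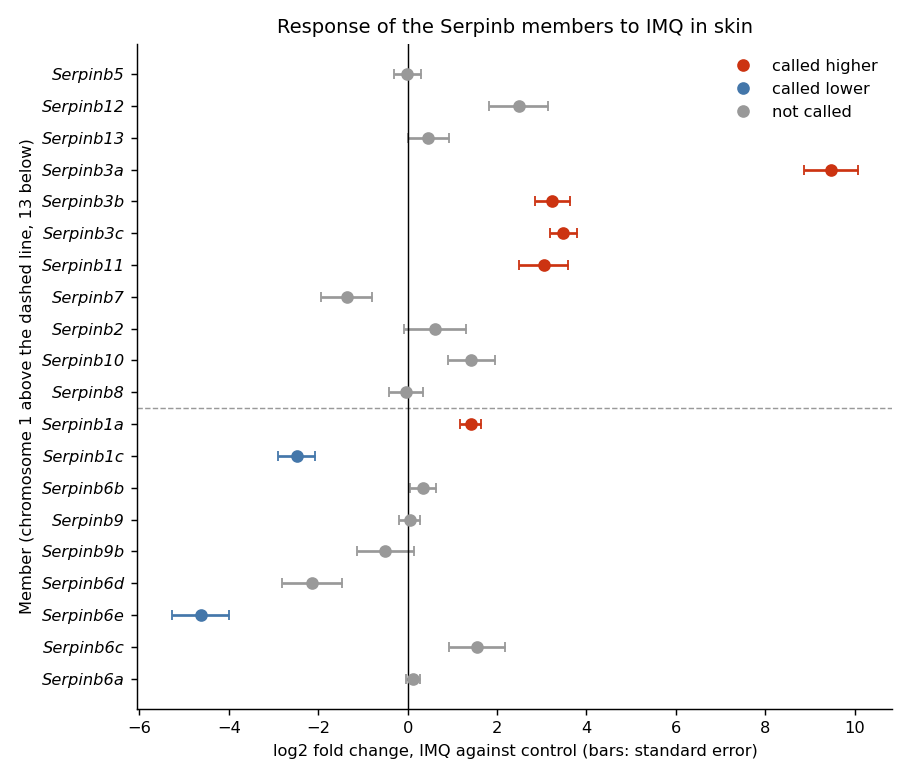
Log2 fold change of IMQ-treated against control skin for the 20 members tested, with bars of 1 standard error, in genomic order. *Serpinb3a* lies at 9.47, the other called members of chromosome 1 between 3.04 and 3.49, and the called members of chromosome 13 on both sides of 0.

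The *Serpinb3* genes are the mouse relatives of the human squamous cell carcinoma antigens, inhibitors of cysteine cathepsins and chymotrypsin-like proteases that are made by inflamed squamous epithelium. *Serpinb3a* (chr1:107045587-107052303) had 16.3, 33.8 and 6.10 normalized counts in control skin and 17693, 12171 and 8985 in IMQ-treated skin. It was thus nearly silent in every control and among the leading members in every treated skin. Its log2 fold change was 9.47 ± 0.61 (SE, adjusted p = 0.00138), or 710-fold. Without control replicate 2, the highest control, it was 10.17 ± 0.58 (adjusted p = 0.00171). *Serpinb3b* (chr1:107153961-107161114) was already present in control skin at 2402, 4183 and 1585, and reached 28673, 29422 and 18855. The rise was 9.42-fold (log2 fold change 3.24 ± 0.39, adjusted p = 0.00772). *Serpinb3c* (chr1:107271201-107278371) had 60.6, 96.0 and 51.4 in control skin and 843, 901 and 582 in IMQ-treated skin, a rise of 11.2-fold (3.49 ± 0.31, adjusted p = 0.00344). These 3 members were called in each of the 6 fits that left out one library.

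*Serpinb3d* (chr1:107078163-107083480) had no count in the 3 control skins and 711, 266 and 199 normalized counts in the IMQ-treated skins. The filter, which asks for a count in every library, dropped it from the test. Its mean in IMQ-treated skin was at least 137-fold above the floor of 3 counts per control library, and it was called without the filter (adjusted p = 0.0129), where 3.74% of all genes were called, and with filterByExpr (adjusted p = 0.0118), where 7.84% were. *Serpinb3d* entered both of these fits only through the IMQ libraries and had to differ, so its calls carry little weight. Each of these filters called 8 members. The pseudogene *Gm8080*, which shares sequence with *Serpinb3a*, had 0, 25 and 4 counts in control skin and 2692, 2223 and 2149 in IMQ-treated skin. Summed over the copies, *Serpinb3* rose by a log2 fold change of 3.82 ± 0.41 (adjusted p = 0.00535). The sum depends less on how reads were split between the copies.

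The rise changed the make-up of the family. The summed level of all members was 354 to 668 FPKM in control skin and 800 to 1131 FPKM in IMQ-treated skin, without overlap. The *Serpinb3* copies held 5.49% to 7.04% of the sum in control skin and 41.1% to 46.2% in IMQ-treated skin. *Serpinb3b* took the first place with 27.8%, ahead of *Serpinb5* with 15.9%, *Serpinb6a* with 15.1% and *Serpinb3a* with 14.0%. Within the *Serpinb3* copies, *Serpinb3a* went from 0.33% to 0.774% of their FPKM in control skin to 28.4% to 36.8% in IMQ-treated skin, while *Serpinb3b* went from 96.6% to 97.0% to between 59.5% and 68.6%.

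**Figure D3:**
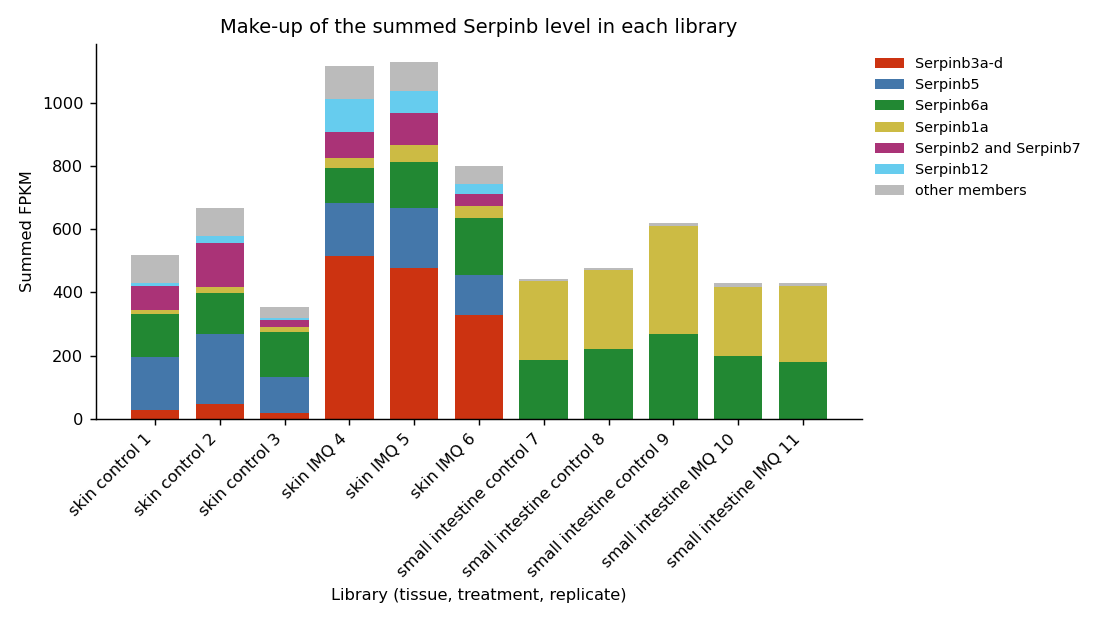
Summed FPKM of the Serpinb members in each of the 11 libraries, split into the leading members (bars start at 0). The *Serpinb3* copies make up 41.1% to 46.2% of the bar in IMQ-treated skin, and *Serpinb1a* and *Serpinb6a* nearly all of it in small intestine.

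Because *Serpinb3a*, *Serpinb3b* and *Serpinb3c* rose together, the sequence before their start sites was examined. RefSeq windows of 250 bases before and 50 after the start were available for 26 of the 28 members. The windows of these 3 copies aligned over 266 to 290 bases with 93.1% to 96.2% identity, whereas the window of *Serpinb3d* had no long match with them. Each stretch below lies upstream of the annotated start and is read on the gene's own strand, with the letters TATAAA in capitals (GRCm38.p6, minus strand).
Serpinb3a, chr1:107052343-107052468: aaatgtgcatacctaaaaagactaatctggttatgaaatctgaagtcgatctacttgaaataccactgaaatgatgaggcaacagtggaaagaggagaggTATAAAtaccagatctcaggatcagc
Serpinb3b, chr1:107161130-107161255: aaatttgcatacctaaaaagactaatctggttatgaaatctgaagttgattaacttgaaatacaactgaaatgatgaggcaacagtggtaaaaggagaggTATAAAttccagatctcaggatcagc
Serpinb3c, chr1:107278377-107278502: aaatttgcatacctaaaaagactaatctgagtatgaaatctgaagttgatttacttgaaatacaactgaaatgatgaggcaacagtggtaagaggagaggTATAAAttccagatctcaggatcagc
TATAAA began 65, 41 and 31 bases before the annotated starts of *Serpinb3a*, *Serpinb3b* and *Serpinb3c*. On either strand of the whole window it was found in 7 of 11 members of chromosome 1, all 4 *Serpinb3* copies among them, and in 2 of 15 members of chromosome 13, against 13.62% of all 32851 windows. The letters TGANTCA of the AP-1 motif, which read alike on both strands and do not overlap TATAAA, were found in 7 of 11 members of chromosome 1, in none of 15 of chromosome 13 and in 7.81% of all windows. They were not in the windows of the *Serpinb3* copies. The 7 were *Serpinb5*, *Serpinb12*, *Serpinb11*, *Serpinb7*, *Serpinb2*, *Serpinb10* and *Serpinb8*, of which 1 was called in skin. Examples upstream of the start, with the motif in capitals, come from the called member and from others of the cluster.
Serpinb11, chr1:107362228-107362254: ggtgaagagcTGAATCAtaacaacaca
Serpinb12, chr1:106934394-106934420: aaaaacaatcTGATTCAcgatcattat
Serpinb7, chr1:107422634-107422660: agggagtgtcTGAGTCAgaggctttat
Serpinb10, chr1:107528939-107528965: cttgtgaaagTGAATCAagggtggggc
The letters TTCNNNGAA (STAT) were found in 1 of 11 and 2 of 15 windows (8.3% of all). The IRF motif, GAAA repeated after any 2 bases, was found in 0 of 11 and 2 of 15 (3.44% of all), and the NF-kB motif, GGGA and CC with any 4 bases between, in 1 of 11 and 2 of 15 (20.73% of all). All were searched on both strands. For every motif, a member counted if any of its windows matched, whereas the share of all is per window. The 26 members had 32 windows, so some members had more chances of a match. A match describes the letters only.

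Among the other members of chromosome 1, *Serpinb11* (chr1:107362314-107380475) had 309, 354 and 146 normalized counts in control skin and 3641, 2043 and 967 in IMQ-treated skin, without overlap. It rose by a log2 fold change of 3.04 ± 0.55 (adjusted p = 0.0257), and the call was lost in 4 of the 6 fits without one library, at adjusted p of 0.0955, 0.0543, 0.0609 and 0.0876 without replicates 1, 3, 4 and 5. *Serpinb12*, an inhibitor of trypsin-like proteases, also showed no overlap, with 834, 2119 and 448 in control skin and 9806, 6324 and 2890 in IMQ-treated skin. Its log2 fold change of 2.49 ± 0.66 did not pass (adjusted p = 0.074), but did without control replicate 2 (3.31 ± 0.60, adjusted p = 0.0248) and with DESeq2 (adjusted p = 0.00043). *Serpinb10*, a serpin known from myeloid cells, did not overlap either, with 499, 1068 and 217 against 1347, 2085 and 1354. Its value was 1.43 ± 0.53 (adjusted p = 0.169), and 2.16 ± 0.41 without control replicate 2 (adjusted p = 0.0279). DESeq2 called it as well (adjusted p = 0.0376), and called 10 members in skin in all, beside 3030 of 20512 genes. The main test called 1382 of the same 20512 genes.

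The remaining members of this cluster overlapped between the groups. *Serpinb7* (megsin), whose human counterpart is lost in an inherited palmoplantar keratosis, had 4097, 6928 and 1294 normalized counts in control skin and 1856, 1931 and 1004 in IMQ-treated skin. Its log2 fold change of -1.36 ± 0.57 did not pass (adjusted p = 0.212), but did without control replicate 3 (-1.79, adjusted p = 0.0431), and was -0.75 without control replicate 2 (adjusted p = 0.393). *Serpinb2*, the inhibitor of urokinase known as PAI-2, had 3426, 8111 and 1176 against 7441, 8955 and 3016 (0.61 ± 0.68, adjusted p = 0.649, and 1.49 without control replicate 2, adjusted p = 0.182). *Serpinb5* stayed at 22306, 31851 and 15093 against 24488, 27131 and 17521, with a fold of 0.998 (adjusted p = 0.998). Neither group stood above the other. *Serpinb8*, which inhibits furin, had 4332, 6694 and 2331 against 5103, 4775 and 3095 (-0.04 ± 0.38, adjusted p = 0.962). *Serpinb13*, an inhibitor of cathepsins made by keratinocytes, had 130, 255 and 89.8 against 235, 287 and 129 (0.46 ± 0.46, adjusted p = 0.603, and 0.98 without control replicate 2, adjusted p = 0.172).

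The members of chromosome 1 also moved together within a group. In control skin, all 11 tested members were highest in replicate 2 and lowest in replicate 3. In IMQ-treated skin, 10 of the 11 were lowest in replicate 6, *Serpinb10* being the exception. The sum of the suprabasal keratinocyte genes was likewise highest in control replicate 2 and lowest in control replicate 3 and IMQ replicate 6, with 1275810, 1380500 and 482720 in control replicates 1 to 3 and 1440706, 1128256 and 577015 in IMQ replicates 4 to 6. The basal keratinocyte, neutrophil, mast cell and B cell sums had the same highest control and the same lowest control and IMQ libraries. The other marker sums did not, those of macrophage and hair follicle genes among them. In IMQ-treated skin, 7 of the 11 members were highest in replicate 5, whereas the suprabasal sum was highest in replicate 4. How many of all genes kept this order was not examined. On chromosome 13, 4 of 9 tested members were lowest in control replicate 3 and 1 of 9 in IMQ replicate 6. The part of epidermal content in these differences was not tested.

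On chromosome 13, the *Serpinb1* copies went in different directions. *Serpinb1a* (chr13:32842092-32853206) had 1269, 1978 and 1347 normalized counts in control skin and 3291, 5114 and 3791 in IMQ-treated skin, so that every treated skin lay above every control. It rose by 2.66-fold (log2 fold change 1.41 ± 0.23, adjusted p = 0.0207). Neutrophil genes moved with it, and 5 of 6 tested were called higher. *S100a8* and *S100a9*, which made up most of their summed count in IMQ-treated skin and are also made by inflamed keratinocytes, rose by 10.16 and 9.46 on the log2 scale, whereas *Csf3r* and *Cxcr2* rose by 3.04 and 2.91 and *Retnlg* rose from 7.63 to 27.1 normalized counts to 61.2 to 71.0. *Ly6g* had at most 9.26 normalized counts in any skin. In the same skins, 3 of 6 macrophage genes and 3 of 6 mast cell genes were called higher, and none of 7 cytotoxic lymphocyte genes was called. Within IMQ-treated skin, *Serpinb1a* was lowest in replicate 4 and the neutrophil sum in replicate 6. The part of neutrophils or other cells in the rise of *Serpinb1a* was not tested. *Serpinb1c* (chr13:32881218-32940628) had 274, 309 and 123 in control skin and fell to 32.8, 41.1 and 52.0 in IMQ-treated skin (-2.48 ± 0.41, adjusted p = 0.0202). Each call was lost for 4 of the 6 libraries when that library was omitted, with adjusted p up to 0.0843 for *Serpinb1a* (control replicates 1 and 3, IMQ replicates 5 and 6) and 0.101 for *Serpinb1c* (control replicate 1 and each IMQ replicate). Both held without control replicate 2, at 1.64 (adjusted p = 0.00992) and -2.24 (adjusted p = 0.0252). *Serpinb1b* had 0 to 13.1 normalized counts in control skin and 19.5 to 24.0 in IMQ-treated skin and was not tested. Summed, the *Serpinb1* copies rose by 1.22 ± 0.23 (adjusted p = 0.0293), a call that remained without control replicate 2 and was lost without any other library (adjusted p of 0.0548 to 0.116).

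The *Serpinb6* copies were no less varied. *Serpinb6e* (chr13:33832345-33843408) had 1969, 1539 and 453 normalized counts in control skin and 47.0, 30.9 and 81.7 in IMQ-treated skin, without overlap. Its log2 fold change of -4.63 ± 0.65 (adjusted p = 0.0118) was the largest fall among the 20 members tested, and was not called without IMQ replicate 4 (adjusted p = 0.0573) or 5 (adjusted p = 0.0621). *Serpinb6d*, with 910, 513 and 190 against 213, 58.6 and 96.5, overlapped between the groups and did not pass (-2.13 ± 0.67, adjusted p = 0.114), but did with DESeq2 (adjusted p = 0.0052). *Serpinb6c* had 675, 481 and 138 against 1543, 1688 and 546 (1.55 ± 0.63, adjusted p = 0.201). The hair follicle genes summed to 360 to 616 in IMQ-treated skin. In control replicate 2, where they summed to 364, *Serpinb6e* had 1539 normalized counts and *Serpinb1c* 309. The part of hair follicle content in these falls was not tested.

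*Serpinb6a* was nearly constant among the control skins, with 10625, 10971 and 11053 normalized counts, and had 9555, 11882 and 14204 in IMQ-treated skin (0.13 ± 0.16, adjusted p = 0.694). *Serpinb6b* had 88.7, 147 and 91.5 against 121, 120 and 174 (0.35 ± 0.30, adjusted p = 0.54). The sum of the *Serpinb6* copies differed by 0.02 ± 0.15 (adjusted p = 0.956). *Serpinb9* had 478, 683 and 486 against 432, 548 and 718, which overlapped widely (0.05 ± 0.24, adjusted p = 0.938). *Serpinb9b* had 9.81 to 54.0 in control and 12.3 to 25.4 in IMQ-treated skin (-0.50 ± 0.64, adjusted p = 0.699).

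The proteases that clade B serpins can meet were examined beside them. In skin, 2 of 7 cysteine cathepsins rose, *Ctsc* by 1.46 ± 0.20 (adjusted p = 0.0115) and *Ctss* by 1.01 ± 0.22 (adjusted p = 0.0419). Of 8 epidermal kallikreins, which shed the outer layer of the epidermis, 2 rose, *Klk14* by 5.50 ± 0.26 (adjusted p = 0.000539) and *Klk13* by 3.91 ± 0.53 (adjusted p = 0.0108). Both mast cell chymases tested rose, *Cma1* by 1.01 and *Mcpt4* by 0.62, and the mast cell genes summed to 4354 to 5392 in control and 6844 to 9770 in IMQ-treated skin. Of the 3 neutrophil serine proteases, 1 was called, *Ctsg*, which rose from 16.3 to 22.7 normalized counts to 53.0 to 73.0. The others were not called, and the log2 fold change was positive for 2 of the 3. None of 4 granzymes tested was called. *Plau*, the urokinase that *Serpinb2* inhibits, rose by 0.99 ± 0.12 (adjusted p = 0.00699), 1 of 3 tested genes of plasminogen activation. *Casp1* rose by 0.86 ± 0.13 (adjusted p = 0.0143), 1 of 2 inflammatory caspases, and the single gene tested among meprins and furin was not called.

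Other inhibitors of the skin rose as well. Of 16 tested epithelial protease inhibitors outside the serpins, 6 rose and none fell, with a median log2 fold change of 0.57 over the 16. The leading ones were the cathepsin inhibitors *Stfa2* (5.52 ± 0.47, adjusted p = 0.00296), *Stfa1* (4.48 ± 0.21, adjusted p = 0.000539) and *Stfa3* (3.85 ± 0.19, adjusted p = 0.000549) and the elastase inhibitor *Slpi* (4.48 ± 0.41, adjusted p = 0.00354). Among 27 tested serpins of other clades, 2 fell, *Serpina3b* (-3.84 ± 0.71, adjusted p = 0.028) and *Serpina3j* (-1.62 ± 0.28, adjusted p = 0.0232). The keratins of wounded and hyperproliferating epidermis summed to 54544 to 74860 in control skin and 260027 to 649942 in IMQ-treated skin. Of these 4 keratins, 3 were called higher and *Krt17* was not (0.46 ± 0.25, adjusted p = 0.327). Between the groups they moved with the *Serpinb3* copies. Among the control skins, their sum was lowest in replicate 2, where *Serpinb3a*, *Serpinb3b* and *Serpinb3c* were highest. The part of these keratins in the rise was not tested.

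To determine whether the members change away from the treated skin, the small intestines of IMQ-treated and control mice were compared. The study detected IMQ in serum and intestine after treatment of the skin, so direct exposure and a distant effect cannot be told apart here. Only 7 of the 28 members had a count in all 5 libraries, and none of the 7 was called by edgeR's quasi-likelihood test or by DESeq2, beside 2.95% of 19965 genes tested (2.77% higher and 0.17% lower). None reached an unadjusted p under 0.05 either, beside 12.3% of all genes, and all 7 overlapped between the groups, whereas 29% of all genes did not. *Serpinb1a* had 27515, 25110 and 37944 normalized counts in control and 22929 and 27086 in IMQ-treated small intestine (-0.27 ± 0.23, adjusted p = 0.74). *Serpinb6a* had 15939, 17533 and 23496 against 16629 and 16245 (-0.21 ± 0.20, adjusted p = 0.783). Both leading members of the small intestine thus overlapped between control and treated mice. *Serpinb9* had 563, 653 and 750 against 822 and 691 (0.21 ± 0.18, adjusted p = 0.763). *Serpinb6b* had 283, 297 and 445 against 524 and 407 (0.44 ± 0.26, adjusted p = 0.586). These members too overlapped between the groups. *Serpinb8* had 85.7, 53.4 and 92.4 against 87.1 and 97.6 (0.26 ± 0.33, adjusted p = 0.849). *Serpinb2* had 77.0, 58.5 and 35.1 against 24.5 and 47.7 (-0.66 ± 0.46, adjusted p = 0.674). *Serpinb5* had 6.05 to 41.6 normalized counts over the 5 libraries. The *Serpinb3* copies that rose in skin had at most 2.22 normalized counts here.

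A pair of members outside this test stood out, chosen after their values were seen. *Serpinb1c* had 3.25, 7.06 and 0 normalized counts in control and 178 and 131 in IMQ-treated small intestine. *Serpinb9b* had 4.34, 0 and 13.9 against 75.3 and 194. Each was excluded for a single control library without a count. With no filter, they were the 2 of 16 tested members called, beside 2.25% of all genes, at 5.47 ± 0.67 (adjusted p = 0.00412) for *Serpinb1c* and 4.40 ± 0.84 (adjusted p = 0.0394) for *Serpinb9b*. The other filter, filterByExpr, called the same 2, beside 3.33% of all genes. Both passed filterByExpr only through the 2 IMQ libraries and had to differ, so this second call carries little weight. Part of the macrophage genes moved with them. The 6 summed to 14795 to 21830 in control and 34757 to 36146 in IMQ-treated small intestine. Called higher were *Adgre1*, *Cd68* and *C1qa* (3 of 6). *Csf1r*, *Lyz2* and *Mrc1* were not called, at 0.38, 0.05 and 0.05 on the log2 scale. Of 5 neutrophil genes tested, 1 was called, *Csf3r*, which rose by 3.21 ± 0.23 (adjusted p = 0.000486), while *Ly6g* and *Ngp* had no count in IMQ-treated small intestine. The part of these cells was not tested.

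The same proteases were examined in the small intestine. Of 7 cysteine cathepsins, 4 rose: *Ctsh* by 1.94 ± 0.13 (adjusted p = 0.000417), *Ctsl* by 1.84 ± 0.14 (adjusted p = 0.000639), *Ctss* by 0.92 ± 0.13 (adjusted p = 0.011) and *Ctsc* by 0.85 ± 0.13 (adjusted p = 0.0174). *Casp4* fell (-0.78 ± 0.14, adjusted p = 0.0342). None of the 5 granzymes, the 4 chymases, the 3 genes of plasminogen activation, the 3 meprins and furin, the 2 kallikreins, the 1 neutrophil serine protease and the 6 other epithelial inhibitors that were tested was called. Of 20 serpins of other clades, *Serpina3g* rose (2.86 ± 0.33, adjusted p = 0.00407).

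The change in skin was then set against the change in small intestine with an interaction term over the 11 libraries. Of 7 members tested, 1 was called, *Serpinb1a*, beside 2.55% of 18108 genes (0.856% higher and 1.7% lower). It was also the single member with an unadjusted p under 0.05, beside 16.9% of all genes. Its change in skin exceeded that in small intestine by 1.67 ± 0.36 on the log2 scale (adjusted p = 0.0397). The call was lost on omitting any 1 library other than skin control replicate 2 or IMQ skin replicate 4, with adjusted p up to 0.17, and for the summed *Serpinb1* copies (1.47 ± 0.36, adjusted p = 0.0609), which were called without skin control replicate 2 (1.72, adjusted p = 0.0149). The *Serpinb3* copies, *Serpinb6e* and *Serpinb1c* could not enter this model, since libraries of the small intestine had no count of them. With no filter, 1 of 24 members was called, *Serpinb1c*, beside 0.968% of all genes. Its change in skin minus that in small intestine was -7.97 ± 0.86 on the log2 scale (adjusted p = 0.00214), and *Serpinb1a* was not called there (adjusted p = 0.0695). With filterByExpr, 1 of 22 members was called, again *Serpinb1c*, beside 1.61% of all genes. *Serpinb1c* was looked at after its values had been seen, so these calls come from the same libraries that drew attention to it.

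**Figure D4:**
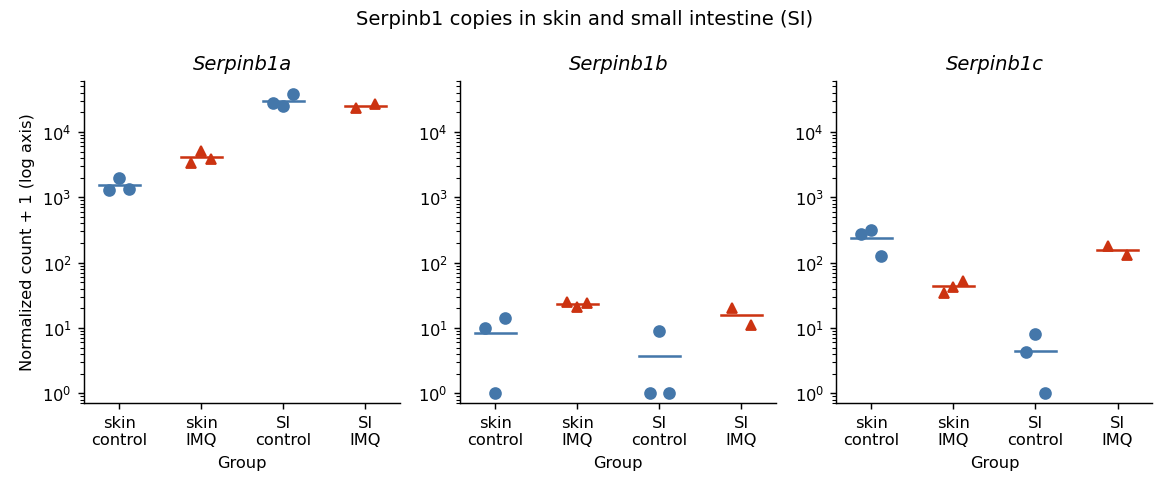
Normalized count + 1 (log axis, scaled within each tissue) of *Serpinb1a*, *Serpinb1b* and *Serpinb1c* in control (circles) and IMQ (triangles) libraries of skin and small intestine (SI), with group means as lines. *Serpinb1c* is lower in every IMQ-treated skin and higher in both IMQ-treated small intestines than in the controls of that tissue.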

How the data were processed

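RNA of skin and small intestine was sequenced as paired 100-base reads. Alignment to mm10 by the authors used HISAT2 2.1.0 and quantification StringTie 2.1.3b, and they deposited whole-number read counts without normalization. The deposited table also holds the FPKM of each gene, used for levels, and the authors' TPM, left unused here. How counts were derived from StringTie's output, and how strand and reads fitting several genes were treated, is not given in the sources used here.

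Counts were analyzed with edgeR 4.0.16 in R 4.3.3, with limma 3.58.1, DESeq2 1.42.0 and Python 3.11.15. Genes counted at least 1 time in all libraries of a tissue were normalized by relative log expression and compared with edgeR's quasi-likelihood F test. The Benjamini-Hochberg adjustment covered every gene tested. Genes with an adjusted p under 0.05 were called. The standard error is the size of the log2 fold change divided by the square root of F. The control tissues were compared after filterByExpr. Normalized counts are scaled to the mean effective library size of a comparison. A fold against a group at 0 uses a floor of 3 counts per library, which covers counting error only. Differences between libraries, with a biological coefficient of variation of 0.245 (skin) and 0.215 (small intestine), set the precision for abundant members.

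Every member is accounted for, and those averaging 50 or more normalized counts in any group are described with each library's value. From other lists at most 4 called genes with the largest change and that mean are named, and others only beside a member's result or in the check of tissue markers. The members, the lists and the tests were chosen with earlier results of these data known. Results were also computed with upper-quartile or TMM normalization, limma-voom, DESeq2, limma on log2(FPKM + 0.01) and log2(FPKM + 1), other filters, one fit of all 11 libraries, copies summed and each library left out. The scripts were tested on simulated data. Promoter windows are from RefSeq (GRCm38.p6) and coding sequences from GENCODE (GRCm38), the build of the files. A further called gene of the lists is not reported here.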

Additional observations from a re-analysis of the deposited data

Results flagged for a closer look

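The response of *Serpinb1a* to IMQ differed between the tissues by the interaction test, with a change in skin that exceeded the change in small intestine by 1.67 on the log2 scale (edgeR quasi-likelihood test, adjusted p = 0.0397, 3 against 3 libraries of skin and 3 against 2 of small intestine). All 3 IMQ-treated skins lay above all 3 controls, while the groups of small intestine overlapped. The call was lost in 9 of the 11 fits with a library omitted (adjusted p up to 0.17), with filterByExpr (adjusted p = 0.0638), with no filter (adjusted p = 0.0695) and for the summed copies (adjusted p = 0.0609).

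*Serpinb1c* moved in opposite directions in the 2 tissues. The mean normalized count of IMQ-treated over control libraries was 0.178 in skin, where all 3 treated libraries lay below all controls, and 44.9 in small intestine, where both treated libraries lay above all controls. In the model as planned the difference was not tested, since one control small intestine had no count. Without the filter on low counts, the difference was called (-7.97 ± 0.86 on the log2 scale, adjusted p = 0.00214). *Serpinb1c* had been chosen after its values were seen, so this call is no independent support. The control small intestines had at most 7.06 normalized counts, so the ratio in this tissue rests on few reads.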

How the results depend on the processing

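No paired analysis was possible because the replicate numbers run from 1 to 11 and no number is shared between groups. Of 743 fold changes of named members under an alternative, 678 kept their direction and side of the threshold, 36 were no longer called, 7 became called and 22 changed sign, none of them a called value. DESeq2 called 3030 genes in skin, 1206 in small intestine and 1281 for the interaction, limma on log2(FPKM + 1) called 894 in skin, and the fit without a filter called 301 for the interaction. In small intestine, filterByExpr called 2 of 9 tested members (3.33% of all genes) and no filter 2 of 16 (2.25% of all genes). Between the control tissues, asking for a count in every library left 7 members to test, against 19 in the main fit. Of these 7, 6 were called. For the summed copies, the *Serpinb1* interaction was called with upper-quartile normalization (1.52, adjusted p = 0.0452) and DESeq2 (1.47, adjusted p = 0.00338), and *Serpinb9* between the control tissues with DESeq2 (-0.55, adjusted p = 0.0325) and limma-voom (-0.58, adjusted p = 0.0429). The cause of these differences was not tested. *Serpinb9* between the control tissues was not called by limma on log2(FPKM + 0.01) (-0.15) or log2(FPKM + 1) (-0.11).

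When single libraries were omitted, the number of genes called ranged from 258 to 2521 in skin, 294 to 801 in small intestine, 144 to 1072 for the interaction and 9849 to 12103 between the control tissues. Members called ranged from 3 (without IMQ replicate 5) to 9 (without control replicate 2) in skin, 0 to 1 in small intestine, 0 to 1 for the interaction and 17 to 18 between the control tissues. The log2 fold changes of the summed copies then ranged as follows. In skin, 1.03 to 1.45 for *Serpinb1*, 3.54 to 4.27 for *Serpinb3*, -0.0698 to 0.12 for *Serpinb6*, -0.18 to 0.19 for *Serpinb9*. In small intestine, -0.39 to -0.0668 for *Serpinb1*, -0.30 to -0.0134 for *Serpinb6*, 0.34 to 0.54 for *Serpinb9*. For the interaction, 1.27 to 1.72 for *Serpinb1*, 0.0218 to 0.31 for *Serpinb6*, -0.62 to -0.23 for *Serpinb9*. Between the control tissues, -4.69 to -4.25 for *Serpinb1*, 10.97 to 14.37 for *Serpinb3*, -1.02 to -0.72 for *Serpinb6*, -0.73 to -0.43 for *Serpinb9*.

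Values near 0 changed sign. In skin, *Serpinb5* was 0.0072 with TMM, 0.032 with limma-voom and 0.0037 with filterByExpr, *Serpinb8* was 0.0493 with limma-voom and 0.0046 and 0.0012 with limma on log2(FPKM + 0.01) and log2(FPKM + 1), *Serpinb9* was -0.0149 and -0.006 on these scales, and the *Serpinb6* sum was -0.0067 in one fit of all 11 libraries. In skin, with a library left out, *Serpinb5* lay between -0.24 and 0.30, *Serpinb8* lay between -0.36 and 0.38, *Serpinb9* lay between -0.16 and 0.23 and *Serpinb6a* lay between -0.0189 and 0.26. For the interaction, with a library left out, *Serpinb5* lay between -0.23 and 0.99, *Serpinb8* lay between -0.64 and 0.13, *Serpinb6b* lay between -0.34 and 0.19 and *Serpinb9* lay between -0.38 and 0.043.

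In small intestine, 2 IMQ libraries limit the precision, and depth limits it for members near 0 counts. Members summed per family are not comparable in number with single members.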
